A study of Mus musculus with 12 samples.

Results

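The genes of fatty acid synthesis and desaturation were examined in mouse kidney. They were chosen by name as the regulators SREBP1 and ChREBP and enzymes that these factors are known to control, and all 10 (Srebf1, Mlxipl, Acly, Acaca, Acacb, Fasn, Me1, Elovl6, Scd1 and Scd2) were found among the 57490 genes of the count table. Each passed the filter on low counts and was tested.

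The study compared kidneys of diabetic mice with and without a herbal decoction, YHY (Yiqi Huoxue Yangyin Decoction, a water extract of several herbs), by sequencing of poly(A) RNA. Ctrl were 4 db/m mice on the BKS background, which the growth protocol describes as heterozygotes of the leptin receptor mutation while another label calls them wild-type. Model were 4 db/db mice, which carry the mutant Lepr allele on both chromosomes, and YHY were 4 db/db mice that received the extract at 6.24 g/mL by gavage. The extract was given once daily for 4 weeks, in a volume of 50 µL for every 10 g that a mouse weighed, while Ctrl and Model received purified water. All 12 mice were male, were obtained at 8 weeks of age and were 13 weeks old at sampling. The db/db mice were selected for high blood glucose before treatment, so Model and Ctrl differ in genotype and by that selection together, and these cannot be told apart. No db/m mouse received YHY.

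Libraries held 24415658 to 33276634 counts. Transcripts of the mitochondrial genome took 18.4% to 22.7% of the counts in Ctrl, 41.2% to 58.9% in Model and 53.8% to 64.6% in YHY, so nuclear genes such as those described here were read at lower depth in db/db kidneys. The lowest count of any of the 10 genes in a mouse was 178, for Acaca in Model 3. Without the genes of the mitochondrial genome in the fit, 6656 genes were called in Model against Ctrl, 2346 in YHY against Model and 8768 in YHY against Ctrl, beside 6631, 2311 and 8762 with them, and no call of the 10 genes changed. Whether the share itself goes with the levels of these genes was not tested. Levels are CPM, read counts scaled to a common library total after TMM scaling, which sets libraries level over most genes, and FPKM, the same divided by gene length in kilobases. Labels name the tissue as whole kidney, while the series design names renal cortex, and proximal tubule, loop and collecting duct markers were present in every library.

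Fatty acids are built in the cytosol from acetyl-CoA, which ATP citrate lyase releases from citrate, through malonyl-CoA made by acetyl-CoA carboxylase, by fatty acid synthase using NADPH. Elongases and desaturases then lengthen the product and add double bonds. SREBP1, which responds to insulin and sterols, and ChREBP, which responds to sugars, switch these genes on in liver.

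The sequences around the starts of 4 genes are given for reference. RefSeq promoters (build GRCm38.p6, 250 bases before to 50 after the start) were given for 8 of the 10 genes in 12 windows, with none for Scd1 and Scd2. Both strands were searched for TCACNCCAC (a core of the sterol element bound by SREBP), CACGTG (the E-box), CCAAT (bound by NF-Y) and GGGCGG (bound by Sp1). Among 32851 windows of all genes, 1.24% held the first, 7.15% the E-box, 37.4% CCAAT and 35.7% GGGCGG. Capitals mark the first 3 motifs on either strand, so that CCAAT on the other strand reads ATTGG.
Acly, chr11:100527951-100528250, minus strand: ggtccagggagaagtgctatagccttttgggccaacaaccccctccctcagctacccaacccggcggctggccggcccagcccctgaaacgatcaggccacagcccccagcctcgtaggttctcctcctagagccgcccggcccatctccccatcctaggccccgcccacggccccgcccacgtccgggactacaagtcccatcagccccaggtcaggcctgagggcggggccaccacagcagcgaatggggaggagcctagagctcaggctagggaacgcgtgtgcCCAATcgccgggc
Fasn, chr11:120824498-120824797, minus strand: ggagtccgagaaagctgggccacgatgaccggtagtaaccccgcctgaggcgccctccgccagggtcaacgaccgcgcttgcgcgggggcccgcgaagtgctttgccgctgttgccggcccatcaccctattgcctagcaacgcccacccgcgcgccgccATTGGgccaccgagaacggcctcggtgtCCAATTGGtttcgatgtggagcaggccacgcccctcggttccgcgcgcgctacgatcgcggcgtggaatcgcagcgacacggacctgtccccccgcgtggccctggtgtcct
Me1, chr9:86695865-86696164, minus strand: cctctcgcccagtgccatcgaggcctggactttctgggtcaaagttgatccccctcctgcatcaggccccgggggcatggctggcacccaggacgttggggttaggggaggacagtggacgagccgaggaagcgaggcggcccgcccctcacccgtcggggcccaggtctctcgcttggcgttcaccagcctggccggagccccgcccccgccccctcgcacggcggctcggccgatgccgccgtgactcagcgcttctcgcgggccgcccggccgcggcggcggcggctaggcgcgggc
Mlxipl, chr5:135106641-135106940, plus strand: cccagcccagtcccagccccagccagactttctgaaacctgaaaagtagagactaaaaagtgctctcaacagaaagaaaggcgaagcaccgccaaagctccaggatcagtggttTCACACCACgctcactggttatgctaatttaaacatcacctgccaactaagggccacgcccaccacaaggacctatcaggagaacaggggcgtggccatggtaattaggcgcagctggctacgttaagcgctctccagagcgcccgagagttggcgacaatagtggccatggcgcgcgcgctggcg
Mlxipl, chr5:135089640-135089939, plus strand: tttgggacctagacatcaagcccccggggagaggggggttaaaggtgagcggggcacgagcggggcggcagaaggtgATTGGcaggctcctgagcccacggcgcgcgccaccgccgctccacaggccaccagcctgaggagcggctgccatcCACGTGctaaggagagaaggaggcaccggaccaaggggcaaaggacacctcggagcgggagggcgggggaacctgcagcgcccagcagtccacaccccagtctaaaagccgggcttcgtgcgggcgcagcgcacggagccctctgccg
Fasn had 3 CCAAT boxes, of which the pair nearest the start overlap each other, and no GGGCGG. Acly had 1 CCAAT box after its start and 4 copies of GGGCGG before it, and the first window of Me1 had 4 copies of GGGCGG and none of the other motifs. Mlxipl had 2 windows whose starts lie 17001 bases apart. The upstream one held the only E-box in the 12 windows, 98 bases before the start, and the downstream one held the only match to the sterol element core, 136 bases before the start. Mlxipl is known to have alternative first exons, and counts per gene do not tell its transcripts apart. CCAAT was found in windows of 6 of the 8 genes and GGGCGG in 4. Srebf1, Mlxipl and Me1 had more than 1 window, so these counts per gene have no matching share among the windows of all genes. A match is a description of letters, and its absence says only that they are not in that window.

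Untreated db/db kidneys were compared with db/m kidneys first. Acly, Fasn and Me1 and both desaturase genes were lower in Model. Me1 stood at 88.5 ± 7.60 CPM against 399 ± 88.7 in Ctrl (SD, n = 4 each), a 4.51-fold drop, and Acly, Fasn, Scd1 and Scd2 were 1.78 to 2.49-fold lower. The elongase Elovl6 went the other way and was 2.46-fold higher, and Acacb was 1.68-fold higher. The regulators Srebf1 and Mlxipl and the carboxylase Acaca did not pass the test. In counts, 5 of the 10 genes were lower, beside 18.5% of the 17431 genes tested, and 2 were higher, beside 19.6%. The median log2 fold change was -0.59 over the 10 genes and 0.04 over all genes tested.

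**Figure D1:**
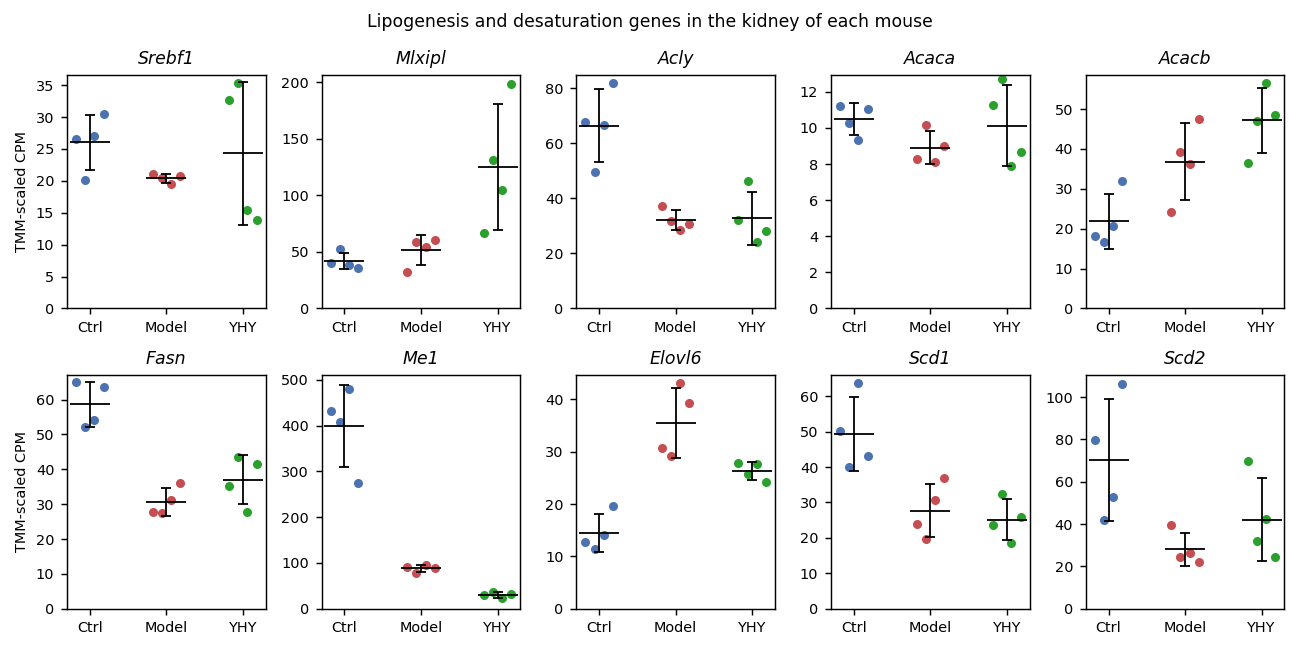
TMM-scaled CPM of each gene (vertical axes, from 0, with a scale of their own) in each mouse of the Ctrl, Model and YHY groups; dots are mice, and bars are the mean and SD of 4 mice. Me1 lay between 274 and 481 CPM in Ctrl, between 78.2 and 96.2 in Model and between 22.9 and 36.3 in YHY, with no overlap.

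Srebf1 encodes SREBP1, the membrane-bound factor that enters the nucleus after cleavage (ENSMUSG00000020538, chromosome 11, 60089915 to 60113407 on the minus strand, in the deposited GRCm39 coordinates). It read 26.5, 20.1, 27.0 and 30.5 CPM in Ctrl 1 to 4, 21.0, 20.4, 19.5 and 20.7 in Model 1 to 4, and 32.7, 35.3, 15.4 and 13.9 in YHY 1 to 4. Model mice were close to each other, at the level of the lowest Ctrl mouse, while YHY mice fell on both sides of them, YHY 1 and YHY 2 above every Ctrl mouse and YHY 3 and YHY 4 below every Model mouse. In Model relative to Ctrl its log2 fold change was -0.35 (95% interval -0.89 to 0.18), with an adjusted p of 0.288 from edgeR's quasi-likelihood test, adjusted across the 17431 genes by Benjamini and Hochberg's method, the test meant by adjusted p from here on. It passed with the 8 mice alone (-0.37) and with library size alone (-0.80). Rai1 overlaps Srebf1 on the other strand and had 58.3% as many counts over the 12 mice. These are counts of the whole gene, and how many reads lie in the overlap is not known. Since the strand setting of the counting is not stated, reads there may be in the count of the other gene or in neither.

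Mlxipl encodes ChREBP (ENSMUSG00000005373, chromosome 5, 135118744 to 135167236, plus strand). It read 40.3, 52.8, 38.8 and 36.2 CPM in Ctrl 1 to 4, 32.1, 58.7, 54.5 and 60.5 in Model 1 to 4, and 66.3, 131, 105 and 198 in YHY 1 to 4. Model 1 was below every Ctrl mouse and the other Model mice were above all of them, and every YHY mouse was above every mouse of the other groups. For Model against Ctrl the log2 fold change was 0.29 (interval -0.29 to 0.87, adjusted p = 0.424). With library size alone it was -0.15, and in the 9 mice behind the authors' group means, which leave out Ctrl 2, Model 1 and YHY 4, it was 0.54 and passed.

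Acly, ATP citrate lyase, makes cytosolic acetyl-CoA (ENSMUSG00000020917, chromosome 11, 100367179 to 100418826, minus strand). It read 67.6, 49.5, 66.4 and 82.0 CPM in Ctrl 1 to 4, 37.1, 31.8, 28.5 and 30.8 in Model 1 to 4, and 32.0, 46.4, 24.3 and 28.0 in YHY 1 to 4. All db/db mice were below all Ctrl mice, and Model and YHY overlapped. Between Model and Ctrl the log2 fold change was -1.05 (interval -1.47 to -0.63, adjusted p = 0.000683).

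Acaca and Acacb encode the cytosolic and the mitochondrial-surface forms of acetyl-CoA carboxylase, the latter better known for the malonyl-CoA that restrains fatty acid import into mitochondria (ENSMUSG00000020532, chromosome 11, 84020498 to 84292477, and ENSMUSG00000042010, chromosome 5, 114284596 to 114388822, both on the plus strand). Acaca read 11.2, 10.3, 9.31 and 11.1 CPM in Ctrl 1 to 4, 8.31, 10.1, 8.13 and 8.98 in Model 1 to 4, and 11.3, 12.7, 7.89 and 8.64 in YHY 1 to 4. Acacb read 18.3, 16.7, 20.7 and 31.9 CPM in Ctrl 1 to 4, 24.1, 39.3, 36.1 and 47.6 in Model 1 to 4, and 36.5, 46.9, 56.6 and 48.5 in YHY 1 to 4. Acaca overlapped between all groups, whereas Acacb in YHY was above every Ctrl mouse and in Model only Model 1 was below the highest Ctrl mouse, Ctrl 4. Acaca had a log2 fold change of -0.24 in Model against Ctrl (interval -0.62 to 0.14, adjusted p = 0.315), which passed with library size alone (-0.68). For Acacb it was 0.75 (interval 0.27 to 1.23, adjusted p = 0.0161). The call for Acacb was lost without Ctrl 1 (0.62), Ctrl 2 (0.63), Ctrl 3 (0.67) or Model 4 (0.60), and with library size alone (0.28).

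Fasn encodes fatty acid synthase (ENSMUSG00000025153, chromosome 11, 120696672 to 120715373, minus strand). It read 64.9, 52.1, 54.0 and 63.6 CPM in Ctrl 1 to 4, 27.8, 27.5, 31.3 and 36.2 in Model 1 to 4, and 35.1, 43.6, 27.9 and 41.4 in YHY 1 to 4. No db/db mouse reached the lowest Ctrl mouse, and YHY 2 and YHY 4 were above all Model mice while the other YHY mice lay among them. Relative to Ctrl, Model had a log2 fold change of -0.93 (interval -1.27 to -0.60, adjusted p = 0.000324).

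Me1, the cytosolic malic enzyme, turns malate into pyruvate and supplies NADPH (ENSMUSG00000032418, chromosome 9, 86463424 to 86578006, minus strand). It read 432, 408, 481 and 274 CPM in Ctrl 1 to 4, 91.4, 78.2, 96.2 and 88.1 in Model 1 to 4, and 29.2, 36.3, 22.9 and 32.2 in YHY 1 to 4. The groups stood apart in steps, with Ctrl 4 lowest of its group and still far above every db/db mouse. In Model its log2 fold change relative to Ctrl was -2.17 (interval -2.58 to -1.76, adjusted p = 2.24e-06).

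Elovl6 lengthens palmitate to stearate (ENSMUSG00000041220, chromosome 3, 129326004 to 129432144, plus strand). It read 12.7, 11.4, 14.0 and 19.6 CPM in Ctrl 1 to 4, 30.6, 29.2, 43.1 and 39.2 in Model 1 to 4, and 27.9, 25.8, 27.6 and 24.2 in YHY 1 to 4. Every db/db mouse was above every Ctrl mouse, and every YHY mouse was below every Model mouse. Its log2 fold change in Model relative to Ctrl was 1.3 (interval 0.92 to 1.68, adjusted p = 6.75e-05).

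Scd1 and Scd2 encode stearoyl-CoA desaturases, which make the monounsaturated oleate and palmitoleate (ENSMUSG00000037071, 44382894 to 44396318 on the minus strand, and ENSMUSG00000025203, 44282113 to 44295303 on the plus strand, both on chromosome 19). Scd1 read 50.2, 40.0, 63.7 and 43.1 CPM in Ctrl 1 to 4, 23.8, 19.6, 30.6 and 36.8 in Model 1 to 4, and 23.7, 32.3, 18.5 and 25.9 in YHY 1 to 4. Scd2 read 79.9, 41.8, 52.8 and 106 CPM in Ctrl 1 to 4, 39.3, 24.6, 26.3 and 22.2 in Model 1 to 4, and 69.6, 31.8, 42.5 and 24.6 in YHY 1 to 4. Scd1 was lower in every db/db mouse than in any Ctrl mouse, while Scd2 was so in Model only, since YHY 1 and YHY 3 reached into the Ctrl range. In Model relative to Ctrl the log2 fold change was -0.83 for Scd1 (interval -1.28 to -0.38, adjusted p = 0.0062) and -1.32 for Scd2 (interval -2.0 to -0.64, adjusted p = 0.00421). These genes have near relatives in Scd3 and Scd4, which had at most 12 and 24 counts in a mouse, and how reads that fit several copies were counted is not stated.

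**Figure D2:**
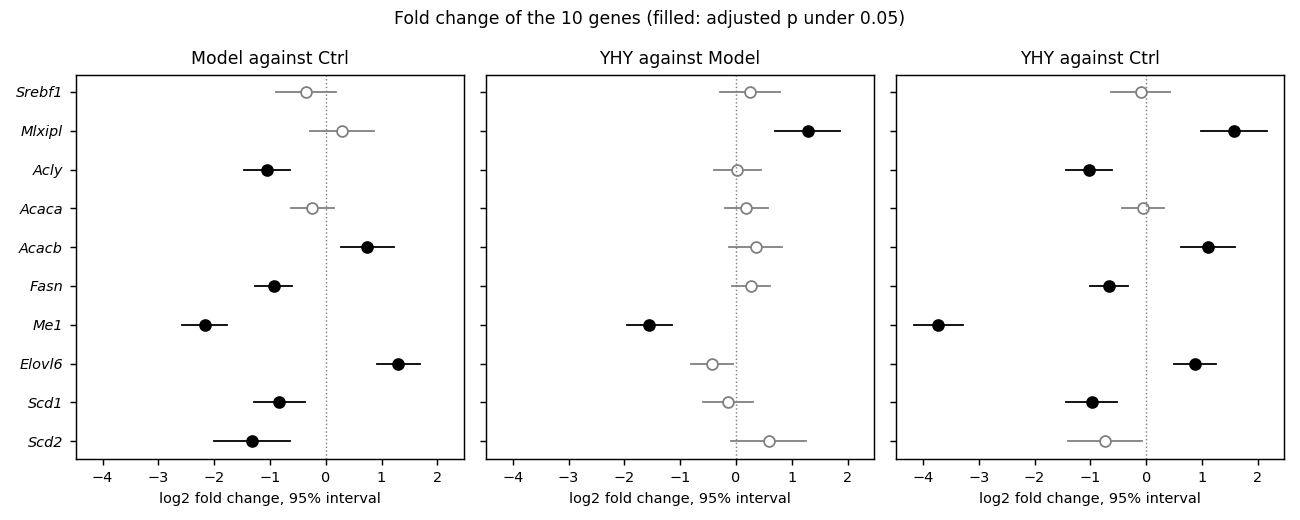
Log2 fold changes (horizontal axes) of the 10 genes in the 3 comparisons with 95% intervals (lines) from the fit of 12 mice; filled dots have an adjusted p under 0.05. Me1 fell by 2.17 in Model against Ctrl and again by 1.56 in YHY against Model, and Mlxipl was 1.28 higher in YHY against Model.

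Scd2 was set beside Aqp2, the water channel of the collecting duct and the most abundant of its 4 markers, after the values were seen. Aqp2 read 692, 364, 412 and 1133 CPM in Ctrl 1 to 4, 366, 219, 269 and 291 in Model 1 to 4, and 486, 134, 237 and 112 in YHY 1 to 4. Its order of mice was that of Scd2 in Ctrl and in YHY, while in Model, Model 1 was highest for both but Model 4, lowest for Scd2, was next for Aqp2. Summed over the 4 markers, the levels were 808, 495, 524 and 1282 CPM in Ctrl, 531, 335, 419 and 388 in Model, and 568, 211, 346 and 178 in YHY. Without Aqp2 the sums of the other 3 were 116, 131, 112 and 149 CPM in Ctrl, 164, 116, 149 and 96.7 in Model, and 82.0, 77.5, 109 and 66.3 in YHY, and did not follow the order of Scd2 in Ctrl or in YHY. In Model these sums had the order of Scd2. By edgeR, of the 4 markers, 1 was lower in Model than in Ctrl, 1 in YHY than in Model and 2 in YHY than in Ctrl, beside 18.5%, 7.62% and 24.2% of all genes tested, while DESeq2 called 0 lower in Model than in Ctrl. No marker of these was at 0 in any mouse. YHY 1, highest in its group for Scd2, also had the urothelial markers Upk1b and Upk3a at 15.9 and 18.9 CPM, where no other mouse was above 5.88. The part of these cells in the level of Scd2 was not tested, and in whole tissue, fewer cells of a type and less RNA per cell cannot be told apart.

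Of 8 proximal tubule markers, 4 were lower in Model than in Ctrl, beside 18.5% of all genes tested, and Lrp2, which encodes the endocytic receptor megalin, read 753 to 898 CPM in Ctrl, 213 to 302 in Model and 76.0 to 285 in YHY. The most abundant, the phosphate transporter Slc34a1, overlapped between the groups (1419 to 2792, 1786 to 2386 and 966 to 2724 CPM). Summed over the list, the levels were 7268, 8689, 7544 and 5089 CPM in Ctrl 1 to 4, 4105, 3676, 4105 and 3049 in Model 1 to 4, and 1476, 3422, 2020 and 4470 in YHY 1 to 4. Ctrl 4 was the lowest Ctrl mouse both in this sum and in Me1. In the other groups the lowest mice differed. They were Model 4 in the sum and Model 2 in Me1 (78.2 CPM), and YHY 1 in the sum and YHY 3 in Me1 (22.9 CPM). In YHY against Ctrl 5 of the 8 were lower and 1 higher, beside 24.2% and 26.1% of all genes. In YHY against Model edgeR called 1 lower, beside 7.62%, while DESeq2 called 3 lower. None of the 8 markers was at 0 in any mouse, and their part in the fall of Me1, Acly and the other genes was not tested.

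Markers of fat and adrenal tissue were also read, and the part of such tissue in the levels of the 10 genes was not tested. Adipoq, Plin1, Lep and Cfd did not exceed 0.762 CPM in any mouse, and Plin1 and Lep were at 0 in all Ctrl mice. Fabp4, which endothelium also expresses, read 41.3 to 88.4 CPM and made up nearly all of the summed white adipocyte list (42.0 to 89.4 CPM). Of the brown adipocyte list, Ucp1 reached at most 0.534 CPM, Cidea 0.372 and Dio2 0.992. Cox7a1, its most abundant gene, read 4.92 to 23.6 CPM and was higher in Model than in Ctrl. The adrenal enzymes Cyp11a1, Cyp11b1, Cyp11b2 and Cyp21a1 did not exceed 0.381 CPM, while Hsd3b1, the most abundant of that list at up to 20.7 CPM, and Star were higher in Model than in Ctrl.

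Among other cell types, 3 of 6 hepatocyte genes were higher and 2 lower in Model against Ctrl, where 19.6% of all genes tested were higher and 18.5% lower, with Apoc3 the most abundant by its mean over the 12 mice and at up to 175 CPM. For the loop of Henle 1 of 2 was lower, Umod, at 526 to 1138 CPM in Ctrl and 80.9 to 199.9 in Model, while Slc12a1, the most abundant by its mean over the 12 mice, overlapped between these groups (435 to 974 and 572 to 873). For the distal tubule 1 of 2 was higher, Slc12a3, at 111 to 192 CPM in Ctrl and 259 to 396 in Model, and Pvalb was lower in YHY (13.8 to 48.7) than in Model (60.2 to 146). For leukocytes 1 of 5 tested was higher and 1 lower (C1qa, 5.66 to 22.2 CPM). Of 4 podocyte markers, edgeR and DESeq2 each called 2 higher and 0 lower in untreated db/db kidneys than in db/m kidneys. In treated db/db kidneys each called 3 higher and 0 lower than in db/m kidneys, where 26.1% of all genes tested were higher by edgeR. Between treated and untreated db/db kidneys each called 0 of these 4. Of 4 endothelial markers (Emcn, 31.4 to 114 CPM) 0 were called by edgeR, 0 at an unadjusted p under 0.05 and 0 by DESeq2 in Model against Ctrl, and of 3 urothelial markers (Upk3a, 0.852 to 18.9) the same counts were 0, 0 and 0. In YHY against Model, 5.63% of all genes tested were higher by edgeR and 7.62% lower. There, 1 hepatocyte gene was higher by edgeR and 2 by DESeq2. DESeq2 alone called 1 loop of Henle and 1 urothelial marker higher and 1 endothelial marker lower.

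Treatment was examined by YHY against Model, both db/db. Mlxipl was 2.43-fold higher after YHY, at 125 ± 55.6 CPM against 51.4 ± 13.1 (SD, n = 4 each), and Me1 was 2.94-fold lower, at 30.1 ± 5.67 against 88.5 ± 7.60. Neither change overlapped between the groups. No other gene of the 10 passed the test, so that 1 was higher, beside 5.63% of genes tested, and 1 lower, beside 7.62%. Of the genes lower in Model, Me1 fell further, and the intervals of the others reach 0.44 for Acly, 0.61 for Fasn, 0.31 for Scd1 and 1.25 for Scd2 on the log2 scale.

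For Mlxipl the log2 fold change of YHY against Model was 1.28 (interval 0.70 to 1.87, adjusted p = 0.00785), and for Me1 it was -1.56 (interval -1.96 to -1.15, adjusted p = 0.000322). For Mlxipl it was 0.97 without YHY 4, 1.10 without Model 1, and 0.80 in the 9 mice behind the authors' means, which leave out both of these and Ctrl 2, and it passed in each. Elovl6 was lower in every YHY mouse than in every Model mouse, but its log2 fold change of -0.43 (interval -0.80 to -0.05) had an adjusted p of 0.123, and it passed only under the limits of the study's methods, a fold change over 1.2 with an unadjusted p under 0.05. Scd2 had 0.58 (interval -0.09 to 1.25, adjusted p = 0.239) and passed in the 9 mice (1.00). The remaining log2 fold changes were 0.25 for Srebf1 (-0.29 to 0.79), 0.02 for Acly (-0.39 to 0.44), 0.19 for Acaca (-0.20 to 0.57), 0.36 for Acacb (-0.12 to 0.83), 0.27 for Fasn (-0.07 to 0.61) and -0.14 for Scd1 (-0.60 to 0.31), each with its 95% interval, and their adjusted p lay between 0.280 and 0.956. The number of genes called was 2311 and moved with the mice in the fit, to 1146 without Model 3 and 1385 with the 8 mice alone, and 2 of the 10 genes were called in each.

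Treated db/db kidneys were set against db/m kidneys last, a comparison that differs in genotype, selection and treatment together. Me1 was 13.2-fold lower in YHY than in Ctrl, Acly 2.03-fold, Scd1 1.97-fold and Fasn 1.59-fold lower. Mlxipl was 2.98-fold, Acacb 2.15-fold and Elovl6 1.83-fold higher. With 4 lower and 3 higher genes, the shares stood beside 24.2% and 26.1% of all genes tested. The median log2 fold change was -0.38 over the 10 genes and 0.10 over all.

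In log2 terms Me1 changed by -3.73 (interval -4.16 to -3.29, adjusted p = 9.12e-09) and Mlxipl by 1.57 (interval 0.99 to 2.16, adjusted p = 0.000219). Acacb had 1.11 (adjusted p = 0.000771), Elovl6 0.87 (adjusted p = 0.000773), Acly -1.02 (adjusted p = 0.000456), Scd1 -0.98 (adjusted p = 0.00132) and Fasn -0.67 (adjusted p = 0.00241). Scd2 stood at -0.73 (interval -1.40 to -0.07, adjusted p = 0.0631). Scd2 crossed the threshold with DESeq2 (-0.72), with library size alone (-1.14), with no filter (-0.77), in the 9 mice (-0.76) and under the study's limits, and also without Ctrl 2 (-0.92), Ctrl 3 (-0.90) or YHY 1 (-1.09). With the replicate number as a block Scd2 crossed it as well (-0.77). Further, the call of Elovl6 was lost with library size alone (0.43). Srebf1 had -0.10 (interval -0.63 to 0.43, adjusted p = 0.763) and Acaca -0.05 (interval -0.43 to 0.33, adjusted p = 0.831). Since YHY against Model and YHY against Ctrl share the YHY mice, and Model is shared likewise, the values stand side by side and were not compared.

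The share of higher calls over all genes moved with scaling. With library size alone the median over all genes moved from 0.04 to -0.39 in Model against Ctrl, and the share of calls that were higher moved from 51.5% to 21.4%. In YHY against Ctrl the median moved from 0.10 to -0.33 and that share from 51.9% to 28.4%. Me1, Acly, Fasn, Scd1 and Scd2 were lower and Elovl6 higher in Model against Ctrl under every scaling tried. With library size alone Elovl6 stood at 0.85 there, beside a median of -0.39 over all genes. With upper-quartile scaling the medians over all genes were 0.14 and 0.22 in these comparisons.

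Per length, the order of the genes changed between groups. Me1 led in Ctrl at 104 ± 23.0 FPKM (SD, n = 4), far above Scd2 (12.8 ± 5.29), Acly (12.6 ± 2.52) and Scd1 (10.1 ± 2.16), whose ranges overlapped, and Acaca was lowest at 0.614 ± 0.0516. Mlxipl (7.59 ± 1.33) was next after Scd1 and overlapped it, Fasn (5.36 ± 0.595) overlapped Srebf1 (4.62 ± 0.770), and Acacb (2.27 ± 0.717) overlapped Elovl6 (2.24 ± 0.561). In Model, Me1 still led at 23.0 ± 1.97 FPKM, ahead of Mlxipl (9.29 ± 2.37), and Acly, Scd1, Elovl6, Scd2, Acacb and Srebf1 followed between 6.07 and 3.62 with each overlapping the next. In YHY, Mlxipl was first at 22.6 ± 10.0 FPKM, above Me1 (7.83 ± 1.47) with no overlap, and from Me1 down to Fasn (3.38 ± 0.645) every gene overlapped the next. Acaca was last in all 3 groups and below the range of the gene before it.

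Paralogue ratios within a mouse do not depend on how libraries are scaled. The log2 ratio of Acaca to Acacb counts was -0.70, -0.69, -1.15 and -1.53 in Ctrl 1 to 4, -1.54, -1.96, -2.15 and -2.41 in Model 1 to 4 and -1.70, -1.88, -2.84 and -2.49 in YHY 1 to 4. Every db/db mouse was below every Ctrl mouse, by 0.01 between Ctrl 4 and Model 1. The difference was -0.99 for Model against Ctrl and -1.21 for YHY against Ctrl, each with a two-sided exact permutation p of 0.0286, the smallest that 4 against 4 mice can give, and 0.0857 after adjustment over the 6 ratio tests, which misses the threshold. For YHY against Model it was -0.22 (exact p = 0.543, adjusted 0.651).

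The log2 ratio of Scd1 to Scd2 was -0.67, -0.06, 0.27 and -1.30 in Ctrl 1 to 4, -0.72, -0.32, 0.22 and 0.73 in Model 1 to 4, and -1.56, 0.02, -1.20 and 0.07 in YHY 1 to 4. Groups overlapped widely. The differences were 0.41 for Model against Ctrl, -0.64 for YHY against Model and -0.23 for YHY against Ctrl, with two-sided exact p of 0.457, 0.257 and 0.657 and adjusted values of 0.651, 0.514 and 0.657.

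**Figure D3:**
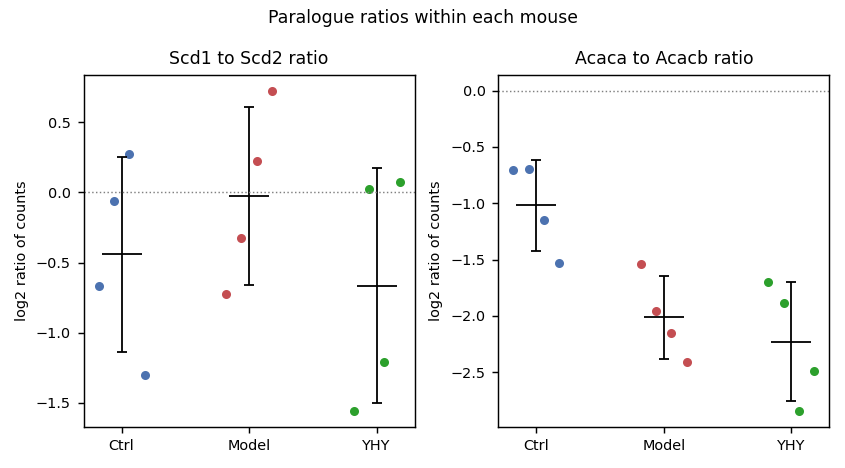
Log2 ratio of counts of Scd1 to Scd2 (left) and of Acaca to Acacb (right) in each mouse by group; dots are mice, bars are the mean and SD of 4 mice, and the dotted line marks equal counts. The Acaca to Acacb ratio lay between -1.53 and -0.69 in Ctrl and between -2.41 and -1.54 in Model.

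Genes around the pathway were counted in 11 lists in Model against Ctrl, beside 18.5% lower and 19.6% higher among all genes tested. Of 9 other desaturation genes tested 8 were lower (median log2 fold change -1.14), led by the sphingolipid desaturase Degs2 (-3.09) and the polyunsaturated fatty acid desaturase Fads2 (-1.62). This list also holds cytochrome b5 genes, which are not desaturases. Of 9 other elongation genes 6 were lower (median -0.70), with Hsd17b12, the ketoacyl-CoA reductase of the elongation cycle, at -1.55 and Elovl7 at -1.41. Elovl6 thus rose while most genes of its own process did not. Of 12 SREBP2 targets, the enzymes of cholesterol synthesis and related genes, 10 were lower (median -0.95), with Cyp51 at -3.06 and Idi1 at -2.23. These medians stand beside 0.04 over all genes tested.

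Of 5 citrate and acetyl-CoA genes 3 were lower (median -0.55), among them the cytosolic synthetases Aacs (-1.37) and Acss2 (-1.32), and of 7 NADPH genes 2 were lower (median -0.11), Idh1 at -0.82 and Pgd at -0.39. The call of Idh1 was lost without Ctrl 1 (-0.88), Ctrl 2 (-0.70), Ctrl 3 (-0.87), Model 2 (-0.73), Model 3 (-0.87), Model 4 (-0.64) or YHY 2 (-0.82), and that of Pgd without Ctrl 2 (-0.34), Ctrl 4 (-0.42), Model 2 (-0.32), Model 3 (-0.40) or YHY 3 (-0.39). Both calls were also lost with upper-quartile scaling (Idh1 -0.72, Pgd -0.28) and with at least 10 counts in every mouse (-0.78 and -0.35), and that of Pgd with no filter (-0.42). With the replicate number as a block both calls were lost too (Idh1 -0.82, Pgd -0.38). Of 6 genes of mitochondrial fatty acid synthesis 4 were lower (median -0.74), with Mcat at -0.97 and Acsf3 at -0.91.

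Control genes went both ways. Of 14 genes of SREBP and ChREBP control 4 were higher and 5 lower (median -0.10), with Mlx, the partner of ChREBP, at -1.21 and the coactivator Ppargc1b at 1.72. Of 9 other targets of SREBP1 and ChREBP 3 were higher and 1 lower (median 0.12), with Thrsp at 1.76 and Mid1ip1 at -1.02. The call of Mid1ip1 was lost without Ctrl 1 (-0.96), Ctrl 4 (-0.93), Model 2 (-1.04), Model 3 (-0.96) or Model 4 (-0.92). This list does not separate targets of SREBP1 from those of ChREBP. It also leaves out the genes counted in the lists of desaturation, elongation and acetyl-CoA supply, so it does not stand for all targets of either factor. Of 16 genes of triglyceride synthesis 2 were higher and 4 lower (median -0.08), with Gpat3 at 1.65 and Mogat1 at -1.88. Of 10 AMPK and malonyl-CoA genes 1 was higher and 2 lower (median 0.17), with the AMPK subunit Prkag3 at 3.62 and malonyl-CoA decarboxylase, Mlycd, at -1.19. Of 5 genes listed as LXR targets 2 were lower (median -0.21), Smpdl3a at -2.30 and Lpcat3 at -0.57. The others of this list, Abca1 among them (-0.21), were not called. Whether each listed gene responds to LXR in mouse kidney was not tested.

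**Figure D4:**
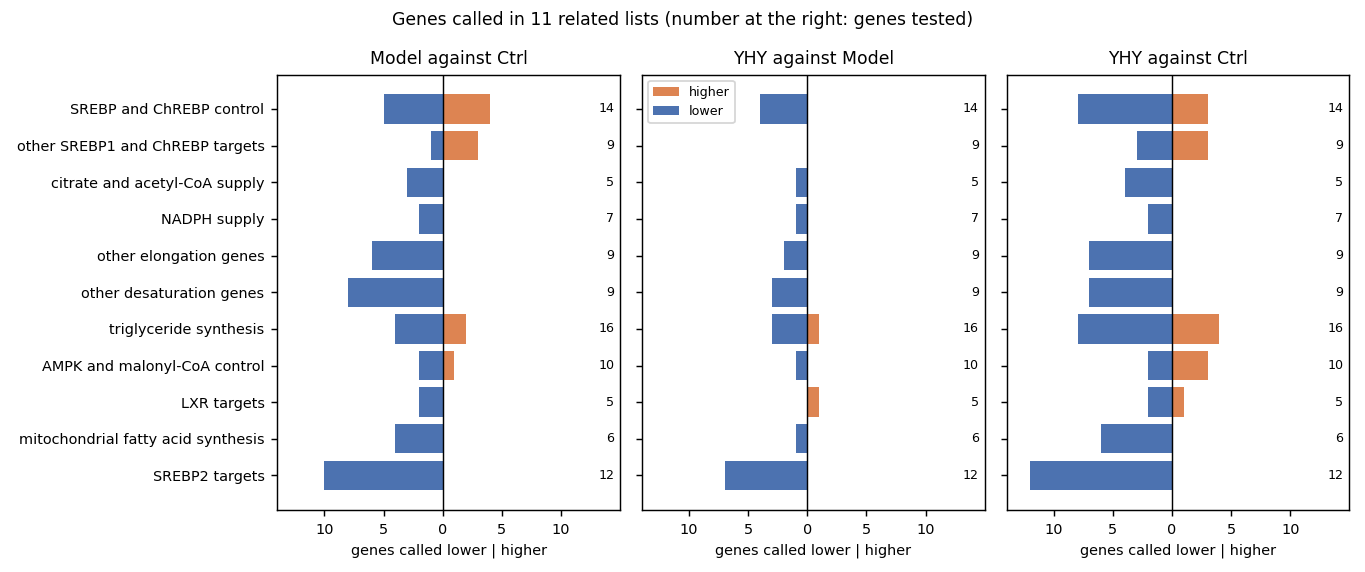
Number of genes called lower (left of 0) or higher (right of 0) at an adjusted p under 0.05 in each of 11 lists, for the 3 comparisons; the number at the right of each row is the number of genes tested. SREBP2 targets were lower in 10 of 12 in Model against Ctrl, 7 of 12 in YHY against Model and 12 of 12 in YHY against Ctrl.

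After YHY, relative to Model, cholesterol genes fell further. Of all genes tested, 5.63% were higher and 7.62% lower in this comparison. Of 12 SREBP2 targets 7 were lower (median -0.80), with Cyp51 at -1.57, beside a median of 0.02 over all genes. Of the 14 control genes 4 were lower, led by Scap (-0.77), which escorts SREBPs for cleavage, and Srebf2 (-0.71), whose call was lost with library size alone (-0.70). Of the 9 other targets of SREBP1 and ChREBP 0 were called by edgeR (median -0.07), while 2 were higher and 2 lower at an unadjusted p under 0.05 and DESeq2 called 2 lower. Of 9 genes of the other desaturation list 3 were lower (median -0.60), while DESeq2 called 5 lower. The largest changes were in Cyb5b (-0.97), a cytochrome b5 gene and not a desaturase, and in Fads3 (-0.85). Of 9 elongation genes 2 were lower (median -0.13), Elovl2 at -2.27 and Elovl1 at -0.55. The call of Elovl1 was lost without Model 1 (-0.45) or YHY 1 (-0.51), with library size alone (-0.55) and with the 8 mice alone (-0.50).

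In the same comparison, where 5.63% of all genes tested were higher and 7.62% lower, Idh1 was the only NADPH gene called by edgeR of 7 (-1.27, median -0.16), where DESeq2 called 2 lower, and its call was lost without Model 3 (-1.23). Slc25a1, the mitochondrial citrate carrier, was the only supply gene called of 5 by edgeR (-0.59, median -0.43), where DESeq2 also called 1, and its call was lost without Model 3 (-0.57) and with the 8 mice alone (-0.54). Of 16 triglyceride genes 1 was higher, Acsl1 (1.05), and 3 were lower, among them Agpat3 (-0.54), with a median of -0.13. The call of Agpat3 was lost without Model 3 (-0.54), Model 4 (-0.49) or YHY 1 (-0.48), with library size alone (-0.53), with no filter (-0.55) and with the 8 mice alone (-0.49). Abca1 was higher (1.68), the only call among the 5 genes listed as LXR targets by edgeR and by DESeq2 (median 0.26). Prkaa2 was lower (-0.73), the only call by edgeR among 10 AMPK genes (median 0.18), where DESeq2 called 2 higher and 1 lower, and its call was lost with library size alone (-0.72). Oxsm was lower (-1.13), the only call by edgeR among 6 mitochondrial synthesis genes (median -0.35), where DESeq2 called 2 lower, and its call was lost without Model 3 (-1.0).

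In YHY against Ctrl, where 24.2% of all genes tested were lower and 26.1% higher, all 12 SREBP2 targets were lower (median -2.06), with Cyp51 at -4.64 and Idi1 at -3.74, beside a median of 0.10 over all genes. Desaturation genes were lower in 7 of 9 (median -1.64, Degs2 -2.78, Fads2 -2.25), elongation genes in 7 of 9 (median -1.29, Elovl2 -2.36, Elovl5 -1.44), and mitochondrial synthesis genes in 6 of 6 (median -0.95, Oxsm -1.50, Mcat -1.50). Control genes were lower in 8 and higher in 3 of 14 (median -0.69, Ppargc1b 1.61, Mlxip 1.48), and other SREBP1 and ChREBP targets were split at 3 and 3 of 9 (median -0.12, Thrsp 1.69, Txnip 1.19).

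Of the lists left in that comparison, citrate and acetyl-CoA genes were lower in 4 of 5 (median -0.93, Acss2 -1.77, Aacs -1.14) and NADPH genes in 2 of 7 (median -0.17, Idh1 -2.09, Pgd -0.39). The call of Pgd was lost without Ctrl 2 (-0.35), YHY 1 (-0.36), YHY 3 (-0.39) or YHY 4 (-0.32), and with upper-quartile scaling (-0.27), with no filter (-0.43), with at least 10 counts in every mouse (-0.33) and in the 9 mice (-0.31). Taking the replicate number as a block also ended the call of Pgd (-0.39). Triglyceride genes were higher in 4 and lower in 8 of 16 (median -0.33, Mogat1 -2.01, Mogat2 -1.62), and the call of Mogat2 was lost without Ctrl 2 (-1.56), Ctrl 3 (-1.50) or YHY 1 (-1.46), with DESeq2 (-1.61) and in the 9 mice (-1.72). AMPK genes were higher in 3 and lower in 2 of 10 (median 0.36, Prkag3 3.40, Prkaa2 -1.64). Genes listed as LXR targets were higher in 1 and lower in 2 of 5 (median 0.28, Smpdl3a -2.53, Abca1 1.47).

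By mean level over all 12 mice, the most abundant genes of these lists, not always the highest within a group, were Nr1h2 (61.6 CPM in Ctrl), Khk (619), Cs (253), Idh1 (552), Tecr (145), Cyb5a (868), Agpat3 (279), Stk11 (86.0), Smpdl3a (181), Ndufab1 (87.4) and Hmgcs1 (168). In Model the same means were 101, 454, 173, 312, 138, 340, 323, 104, 36.9, 71.3 and 124 CPM, in that order of genes. In YHY they were 93.1, 333, 133, 129, 154, 206, 223, 121, 31.5, 52.6 and 67.3 CPM.

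Patterns most like those of 4 of the genes were sought among 10157 genes, by the root mean square difference of standardised log2(CPM + 1) over the 12 mice, as a description. For Mlxipl the nearest were Dgkh (0.234), Ift88 (0.235) and Cnst (0.237), and Dgkh averaged 13.9, 21.9 and 64.0 CPM in Ctrl, Model and YHY. For Fasn they were G3bp2 (0.259), Acad10 (0.304) and Usp14 (0.318), for Scd1 Plaa (0.332), Fam171a1 (0.376) and Tmem177 (0.409), and for Srebf1 Fam91a1 (0.409), Serpinb6a (0.427) and Ddit4 (0.443). Among the 10 genes themselves, Fasn was nearest to Acly (0.501) and Scd1 (0.536), while Mlxipl was nearest to Acacb (0.764) and far from Fasn (1.57).

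Lepr, the gene mutated in db/db mice, was read at 4.84 to 11.7 CPM in Ctrl, 2.79 to 8.27 in Model and 4.34 to 16.6 in YHY. Its log2 fold change in Model against Ctrl was -0.54 (adjusted p = 0.292). The mutation is known to alter splicing of the receptor, so a count over the whole gene does not check the genotype labels.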

How the data were processed

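The authors deposited raw counts of reads per gene for the 12 mice, with gene length and GRCm39 coordinates. Per the labels, reads were checked with FastQC 0.11.9, trimmed with Trimmomatic 0.39, aligned with HISAT2 2.2.1 (SAMtools 1.12) and counted with featureCounts 2.0.1; the strand setting is not stated. The authors also deposited group means as a normalized signal, used here only to find which mice they hold: 9 of the 12, which leave out Ctrl 2, Model 1 and YHY 4. Their fold changes, p-values and pathway tables were not used, nor were 12 columns of values per mouse, some under names of other libraries. Each replicate is labelled as a separate mouse, and pairs of libraries within a group differed by 18.8 to 154 in chi-square per degree of freedom, so none was a duplicate.

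Counts were fitted with edgeR 4.0.16 in R 4.3.3 (TMM scaling, filterByExpr, quasi-likelihood F test, two-sided) in 1 model of the 3 groups without covariates, with Benjamini-Hochberg adjustment over 17431 genes and a threshold of 0.05. Only the edgeR fit of Model against Ctrl was tested on simulated counts, in which most genes were unchanged and all had the same spread. The shift in mitochondrial share between the groups was not simulated. Alternatives were DESeq2 1.42.0, other scaling, filters, a fit without the mitochondrial genome's genes, subsets of mice, the replicate block and the call limits of the study's methods. Ratios of counts were compared by exact permutation. Tables were made with Python 3.11.15 and pandas 2.3.3. The members and lists were chosen with earlier results of these data known. Genes named are all 10 members, from each list up to 2 called genes with the largest absolute log2 fold change in a comparison and the most abundant gene, and for 4 members the 3 most similar genes with a mean of at least 5 CPM. Aqp2, Lrp2, Umod, Pvalb, Star, Upk1b, Lepr, Cidec and the genes named as near 0 were added after their values were seen. Hsd17b8, of the mitochondrial synthesis list, was not found under that symbol.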

Additional observations from a re-analysis of the deposited data

Results flagged for a closer look

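In each group of 4 mice, the highest and lowest values of the 10 genes, of the 2 log2 ratios and of the mitochondrial share were compared with the rest by Dixon's test, in 39 groups of values. The share of counts from the mitochondrial genome stood apart in 2 of them. It was 22.7% in Ctrl 2, above the other Ctrl mice, and 64.6% in YHY 2, above the other YHY mice. Chance flags about 1 in 20 groups. None of the 10 genes and neither ratio had a mouse that stood apart by this test.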

How the results depend on the processing

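For the 10 genes in 3 comparisons, 690 alternative values were computed, of which 657 kept direction and side of the threshold, 15 crossed into a call, 6 lost one and 12 changed sign, and the cause was not tested. No value that had passed the test changed sign. Signs changed for Mlxipl in Model against Ctrl with library size alone (-0.15), for Acly in YHY against Model with library size alone (-0.0216) and among mice left out in turn (-0.19 to 0.14), and for Scd1 in YHY against Model when mice were left out (-0.29 to 0.019). In YHY against Ctrl they changed for Srebf1 with upper-quartile scaling (0.0232) and among mice left out (-0.34 to 0.0877), and for Acaca with upper-quartile scaling (0.0698), with at least 10 counts in every mouse (0.0071) and among mice left out (-0.18 to 0.0464). Of 1353 values for 59 other named results, 1299 kept direction and call and 54 lost the call.

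The number of genes called in YHY against Model, 2311, was 1177 with library size alone, 1385 with the 8 mice compared, 4988 with the study's call limits, and 1146 to 2723 with 1 mouse left out. The other counts of genes, and the counts of the 10 genes called in YHY against Model apart from 3 in the 9 mice and with the study's limits, moved by less than 1.5 times. The ratios moved by less than 1 SD, though Scd1 to Scd2 in YHY against Ctrl changed sign among mice left out (-0.51 to 0.07). Ratios without a mouse were not tested and are values only.

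Mice with the same replicate number did not deviate together (r from -0.173 to 0.125), and 3 of 12 correlated best with their own number. With the replicate block, 6289, 1920 and 8424 genes and 7, 2 and 8 members were called in Model against Ctrl, YHY against Model and YHY against Ctrl. The lowest count of the 10 genes in a mouse was 178, and the part of depth in the calls was not tested.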
